A study of Drosophila melanogaster with 9 samples.

Results

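Glutathione S-transferases (GSTs) are enzymes that join the tripeptide glutathione to reactive, electrophilic compounds, which makes these compounds more soluble and easier to export. The cytosolic GSTs of *Drosophila* fall into lettered classes, of which delta (D) and epsilon (E) are the insect classes best known for handling insecticides and plant toxins, while sigma (S), omega (O) and theta (T) members have relatives in vertebrates. Many of the genes arose by local duplication and still lie in clusters, and several class D genes are known targets of the stress-responsive transcription factor CncC. The family was taken here as every protein-coding gene whose symbol is Gst followed by a capital letter, without *GstZ1* and *GstZ2*. This gave 33 genes of the 14077 in the data, with 11 in class D, 14 in class E, 3 in class O, 1 in class S and 4 in class T. *sepia* (*se*), an omega-class gene in eye pigment synthesis, carries another kind of symbol and was therefore not a member.

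The translatomes are TRAP-seq libraries, in which ribosomes carrying a GFP-tagged large-subunit protein are pulled down from a lysate and the bound mRNA is sequenced. Fed SFC libraries came from flies in which *PG150-GAL4* drove UAS-Rpl10A-GFP, as the labels spell it (UAS-RpL10Ab-GFP in the study), in stretch follicle cells, the flat cells that lie over the nurse cells and take part in their removal. Starved AFC and fed AFC libraries came from flies in which *GR1-GAL4* drove the same UAS-Rpl10A-GFP transgene in follicle cells, named main body follicle cells in the sample labels and AFCs in the study. Both fed groups were aged 3 days at 25°C and then had yeast paste for 2 days, and starvation lasted 16 to 20 h, on apple juice agar with no yeast. Every group had 3 libraries, each from thoraxes and abdomens of about 100 flies. The study's methods limit the groups as models, because *GR1-GAL4* is active in stretch follicle cells as well and weakly in the gut, and *PG150-GAL4* is active in centripetal cells as well and weakly in the Malpighian tubules. A lower level in such a pulled-down sample can come from fewer cells of a type or from less ribosome-bound mRNA per cell, and the data cannot tell these apart. Fed SFC libraries also differ from both AFC groups by driver line, so cell type and line cannot be told apart either.

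Library totals were 30551253 to 45910215 estimated reads, of which 1.19 to 36.3% fell on rRNA genes and pseudogenes. The highest rRNA share was in fed SFC replicate 2, and fed AFC replicate 1 stood apart with 13250 genes at 10 or more reads, against 9273 to 10869 in the other libraries. Results that change without either library are given with that change. Among 11 markers of stretch follicle cells none was called different between fed SFCs and fed AFCs by edgeR's test (2.99% of all genes were). Of the 11, 1 had an unadjusted p below 0.05 (19.7% of all genes), and 9 had a positive LFC. These markers did not set the fed SFC libraries apart at the threshold. At these shares, 0 calls in 11 genes cannot tell whether the markers differ.

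The members lie in 4 clusters and at 7 single positions (BDGP6.54). All 11 class D genes are on chromosome arm 3R from 12364776 to 12385624, a stretch of 20849 bases in the order *GstD10*, *GstD9*, *GstD1*, *GstD2* to *GstD8* and *GstD11*. *GstD10*, *GstD9* and *GstD1* are read from the minus strand and the others from the plus strand. Of the 14 class E genes, *GstE10* and *GstE1* to *GstE9* share 13198 bases of 2R from 18396638 to 18409835, and *GstE11*, *GstE12*, *GstE13* and *GstE14* lie elsewhere on 2R. *GstO3*, *GstO2* and *GstO1* lie on 3L from 8518885 to 8524866 with *se* among them, *GstT1* and *GstT2* are neighbours on 2R, *GstS1* is on 2R from 17093246 to 17099501, and *GstT3* and *GstT4* are apart from each other on X.

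The gene models differ along these lines too. In 16 members every annotated transcript has a single exon. These are the 7 genes *GstD2* to *GstD8* and the 9 genes *GstE1* to *GstE9*. Exons of 7 members overlap a gene on the other strand by 6 to 223 bases, which a library kit that does not mark strand cannot resolve. They are *GstE1* and *GstE10* (with each other), *GstE9* (with *imd*), *GstE12* (*CG3894*), *GstE13* (*CG18659*), *GstO2* (*se*) and *GstT2* (*CG12926*). No class D exon overlaps a gene on the other strand. Close copies can also share reads, which Salmon divides between transcripts and which then usually leaves a fraction. The summed reads of 30 members were whole numbers to within 0.01 in all 9 libraries, and only *GstD2*, *GstD5* and *GstT2* carried a larger fraction in some library.

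Levels between genes were compared as TPM, which corrects for transcript length. *GstD1*, an abundant class D enzyme known for detoxifying DDT, was the highest member in all 3 groups, with means of 2143 ± 1098 TPM in fed SFCs, 3022 ± 258 TPM in starved AFCs and 4191 ± 853 TPM in fed AFCs (SD, n = 3). It alone held 35.2, 37.2 and 42.8% of the summed TPM of the 33 genes in the fed SFC libraries, 46.3, 45.6 and 48.1% in the starved AFC libraries and 45.9, 50.8 and 49.3% in the fed AFC libraries. The gene at rank 2 was *GstD5* in fed SFCs, at 636 ± 554 TPM, and *GstD2* in starved AFCs (453 ± 47.7 TPM) and in fed AFCs (996 ± 250.3 TPM). By library, *GstD5* had 479, 177 and 1252 TPM in fed SFCs, against 605, 398 and 588 TPM for *GstE12*. *GstD5* thus stood above *GstE12* in fed SFC replicate 3 only. The ranks next in line do not separate beyond the spread. In fed SFCs, the SD of *GstD5* spans *GstE12* (530.4 ± 114.8 TPM) and *GstE6* (311 ± 114 TPM), and in fed AFCs *GstD3* (503 ± 199 TPM), *GstE1* (457 ± 262 TPM), *GstE6* (391 ± 104.5 TPM) and *GstE12* (340.4 ± 86.5 TPM) follow one another within their SDs.

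At the other end, *GstE14* (Noppera-bo), which acts in ecdysteroid synthesis in the larval prothoracic gland, averaged 0.751 ± 0.566 TPM in fed SFCs, 1.14 ± 0.635 TPM in starved AFCs and 1.15 ± 0.239 TPM in fed AFCs. *GstE2* averaged 0.459 ± 0.401 TPM in fed SFCs, 0.263 ± 0.133 TPM in starved AFCs and 1.06 ± 0.567 TPM in fed AFCs. The 2 members that failed the filter on low counts were *GstD11*, with 11, 0 and 4 reads in fed SFCs, 6, 7 and 1 reads in starved AFCs and 70, 2 and 0 reads in fed AFCs, and *GstE4*. *GstE4* had 7, 0 and 5 reads in fed SFCs, 0, 12 and 4 reads in starved AFCs and 30, 5 and 0 reads in fed AFCs. The highest count of either gene was in fed AFC replicate 1, the library with the most genes detected. The other 31 members passed and were tested. Within the class D cluster the levels thus span from the most abundant GST of the data to one that was barely read.

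**Figure D1:**
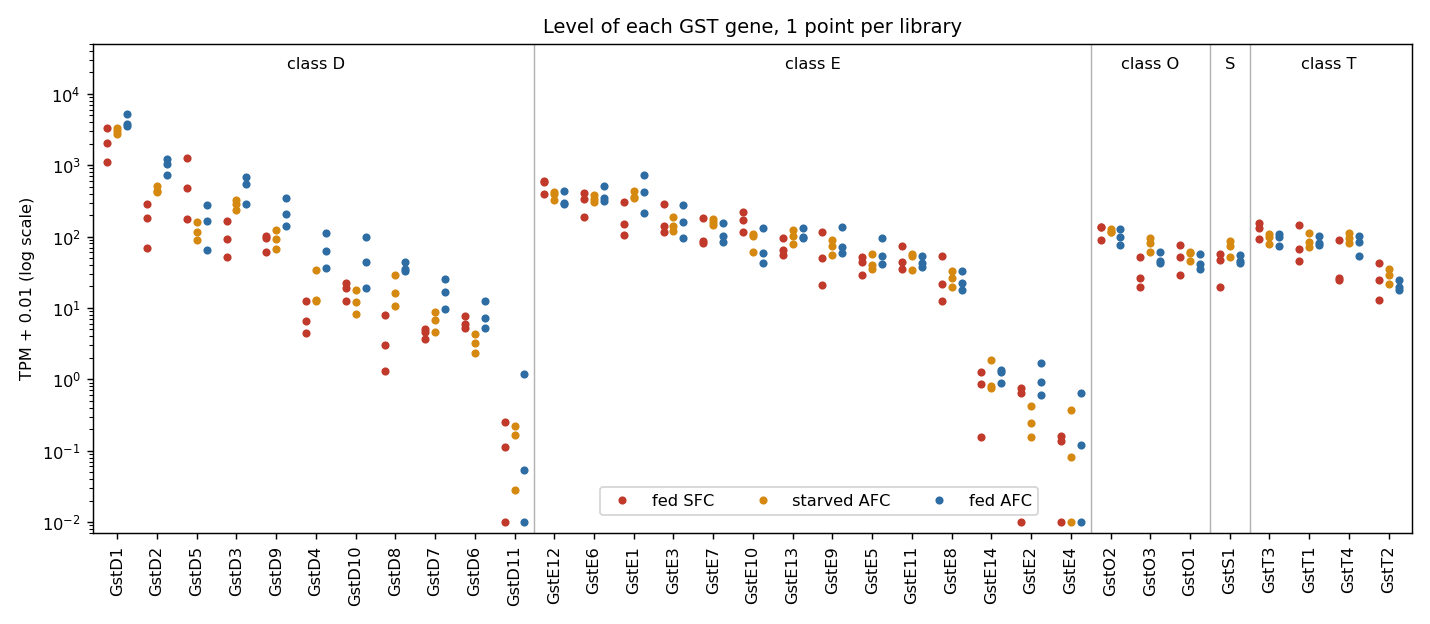
TPM (plus 0.01, log scale) of each of the 33 GST genes, grouped by class and ordered by mean level, with 1 point per library for fed SFCs, starved AFCs and fed AFCs. *GstD1* stands at the top with group means of 2143 to 4191 TPM, and *GstD11*, *GstE2*, *GstE4* and *GstE14* lie near or below 1 TPM.

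The balance between the classes differed between the groups, as a description of these libraries. Class D took 52.0, 50.1 and 66.0% of the summed TPM of the family in the fed SFC libraries, 61.5, 60.9 and 64.5% in the starved AFC libraries and 71.0, 73.9 and 72.6% in the fed AFC libraries. All 6 values in fed SFCs and starved AFCs lie below the 3 of fed AFCs. Class E took 34.8, 38.7 and 27.4% in fed SFCs, 28.2, 27.9 and 27.5% in starved AFCs and 23.6, 19.2 and 21.3% in fed AFCs, with every value of the other groups above those of fed AFCs. The reads behind these shares moved less evenly. Summed class D levels were 2244, 2398 and 4236 CPM (read counts scaled to library size after TMM normalization, the unit of levels compared between groups except where TPM or reads are named) in fed SFCs, 3566, 3005 and 5786 CPM in starved AFCs and 7162, 5629.5 and 7294 CPM in fed AFCs. Class E sums were 1544, 1881 and 1731 CPM in fed SFCs, 1673, 1403 and 2573 CPM in starved AFCs and 2440.5, 1510.3 and 2199 CPM in fed AFCs. Class D sums of fed SFCs stood below those of fed AFCs in each library, starved AFC replicate 3 overlapped the fed AFC range, and the class E sums of fed SFCs and fed AFCs overlapped.

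**Figure D2:**
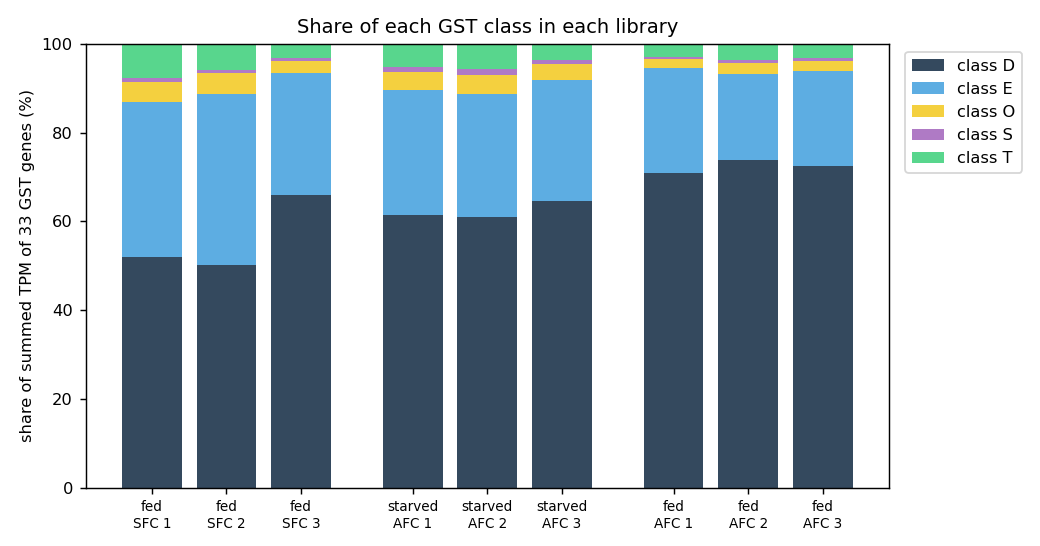
Share (%) of the summed TPM of the 33 GST genes held by each class, 1 bar per library, for fed SFCs, starved AFCs and fed AFCs. Class D holds 50.1 to 66.0% in fed SFCs, 60.9 to 64.5% in starved AFCs and 71.0 to 73.9% in fed AFCs.

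To ask which GSTs differ between follicle cells that clear nurse cells and the fed baseline, fed SFCs were compared with fed AFCs. The members called by edgeR with all 9 libraries were in class D, and DESeq2 also called 5 members outside it. *GstD2*, *GstD3*, *GstD4* and *GstD8* were lower in fed SFCs, with log2 fold changes (LFCs) of -2.78, -2.54, -3.19 and -3.55, and no member was called higher by edgeR, DESeq2 or limma-voom. These are 4 of the 31 members tested, where 193 of all 10870 genes tested (1.78%) were called lower and 325 (2.99%) in either direction, by edgeR's quasi-likelihood test at an adjusted p below 0.05. At an unadjusted p below 0.05 stood 16 of the 31 (19.7% of all genes), and in 15 of the 31 the libraries of the groups did not overlap (20.9% of all genes). With 3 libraries a group the p-values measure the spread between these libraries, and an exact permutation test of 1 gene could not go below 0.1.

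Among the genes the difference turned on, *GstD2* (FBgn0010038, 3R from 12371971 to 12372704, a class D enzyme) had 116, 87.2 and 189.7 CPM in fed SFCs, against 948, 946 and 798 CPM in fed AFCs (LFC -2.78, SE 0.32, adjusted p = 0.000822). The highest fed SFC library was less than the lowest fed AFC library by several fold. *GstD3* (FBgn0010039, 3R from 12373068 to 12373813), its next neighbour, had 114.6, 80.9 and 72.9 CPM in fed SFCs, against 577, 299 and 682 CPM in fed AFCs (LFC -2.54, SE 0.40, adjusted p = 0.00612). All fed SFC values were below all fed AFC values, and fed AFC replicate 2 was the lowest of its group.

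*GstD8* (FBgn0010044, 3R from 12380008 to 12380815) had 6.01, 1.99 and 2.40 CPM in fed SFCs, against 39.8, 36.7 and 46.3 CPM in fed AFCs (LFC -3.55, SE 0.56, adjusted p = 0.00644). This was the lowest LFC of the family (-4.20 without fed SFC replicate 1), and the groups did not overlap. *GstD4* (FBgn0010040, 3R from 12374100 to 12374824) had 2.89, 9.39 and 9.35 CPM in fed SFCs, against 89.1, 34.1 and 73.7 CPM in fed AFCs (LFC -3.19, SE 0.65, adjusted p = 0.0222), again without overlap. The calls of *GstD2*, *GstD3* and *GstD8* stood with any 1 of the 9 libraries left out, at adjusted p-values of at most 0.00891, 0.0368 and 0.0285. That of *GstD4* did not, with 0.0693 without fed AFC replicate 3, 0.0531 without fed SFC replicate 1, 0.0604 without fed SFC replicate 2, 0.054 without fed SFC replicate 3, and 0.0631 without fed AFC replicate 1 and fed SFC replicate 2 together.

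The other tested class D genes showed the same sign without passing the threshold in edgeR's test, with 1 exception. DESeq2 called *GstD1*, *GstD7*, *GstD9* and *GstD10* lower as well (11.1% of all genes called). Of these, limma-voom called *GstD1*, *GstD7* and *GstD9* (3.24%). *GstD1* (FBgn0001149, 3R from 12367817 to 12369268) had 1511, 1771 and 2706 CPM in fed SFCs, against 4779.9, 4034 and 5082 CPM in fed AFCs (LFC -1.21, SE 0.35, adjusted p = 0.0903). *GstD7* (FBgn0010043, 3R from 12378500 to 12379255) had 3.00, 6.68 and 2.52 CPM, against 20.8, 9.26 and 19.2 CPM in fed AFCs (LFC -2.02, SE 0.54, adjusted p = 0.0691). For both genes every fed SFC library was below every fed AFC library. *GstD10* (FBgn0042206, 3R from 12364776 to 12365735), at the other end of the cluster, had 16.2, 23.5 and 20.9 CPM in fed SFCs, against 102, 23.5 and 67.3 CPM in fed AFCs (LFC -1.67, SE 0.51, adjusted p = 0.106), and fed AFC replicate 2 was at the level of the highest fed SFC library. *GstD1*, *GstD2*, *GstD3*, *GstD7* and *GstD10* are the members that the study took to RNAi in follicle cells. The study lists each of them as enriched in fed AFCs in its translatome, from its own DESeq2 analysis. *GstD9*, chosen after its values were seen because its adjusted p of 0.0501 was next to the threshold, had 73.2, 99.1 and 84.9 CPM in fed SFCs, against 316, 159.6 and 276 CPM in fed AFCs (LFC -1.55, SE 0.38). *GstD6* differed least, with an LFC of -0.46 (SE 0.52, adjusted p = 0.642).

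*GstD5* (FBgn0010041, 3R from 12375733 to 12376572) went the other way, and was likewise chosen after its values were seen. It had 397, 310.0 and 1141 CPM in fed SFCs, against 277, 80.8 and 239 CPM in fed AFCs (LFC 1.63, SE 0.57, adjusted p = 0.151), so that its higher level did not pass the threshold. All 3 fed SFC values were above all 3 fed AFC values, and fed SFC replicate 3 was well above the others, with an LFC of 0.84 when it was left out. *GstD5* lies between *GstD4* and *GstD6* on the same strand. Within a library, the ratio of its TPM to that of *GstD2* was 2.62, 2.57 and 4.34 in the fed SFC libraries and 0.226, 0.0627 and 0.225 in the fed AFC libraries, which is a description of 2 genes chosen for their opposite signs. Over the 10 tested class D genes, 9 LFCs were negative and the median was -1.85, beside -0.10 over all genes tested.

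**Figure D3:**
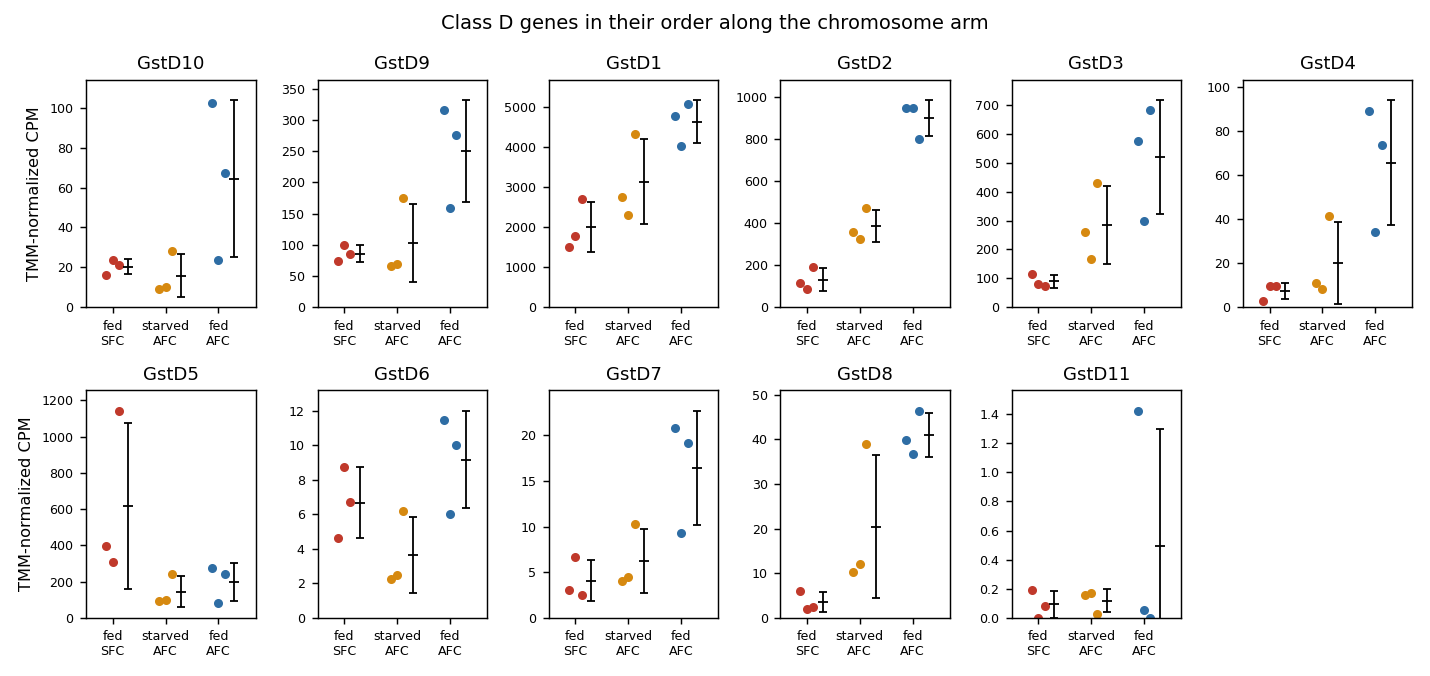
TMM-normalized CPM of the 11 class D genes in their order along 3R, with 1 point per library for fed SFCs, starved AFCs and fed AFCs and the mean ± SD (n = 3) in black beside each group. Fed SFC points lie below fed AFC points without overlap for *GstD1*, *GstD2*, *GstD3*, *GstD4*, *GstD7*, *GstD8* and *GstD9*, and above them for *GstD5*.

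None of the 13 tested class E genes was called in fed SFCs against fed AFCs by edgeR's test (2.99% of all genes were). At an unadjusted p below 0.05 stood 4 (19.7% of all genes), and the median LFC was -0.49. At these shares 0 calls in 13 genes do not set class E apart from all genes. DESeq2 (11.1% of all genes) called *GstE1* (adjusted p = 0.00816) and *GstE13* (0.0363), and limma-voom called 0 (3.24%). edgeR called *GstE1* without fed AFC replicate 2 (0.0424, with 1.77% of all genes called). *GstE12*, the highest class E gene by mean TPM over all 9 libraries but below *GstE1* and *GstE6* in fed AFCs, had 504, 678 and 515 CPM in fed SFCs, against 449, 354 and 419 CPM in fed AFCs (LFC 0.47, SE 0.24, adjusted p = 0.293), with all fed SFC values above. *GstE6* had 285, 289 and 259.9 CPM in fed SFCs, against 429, 321 and 422 CPM in fed AFCs (LFC -0.49, SE 0.29, adjusted p = 0.37), with all fed SFC values below. Inside the class E cluster 8 of the 9 tested genes had negative LFCs, and the exception was *GstE10*. The LFC of *GstE1* was -1.46 (SE 0.42, adjusted p = 0.087), with 116, 171 and 258 CPM in fed SFCs and 693, 247 and 564 CPM in fed AFCs, where fed AFC replicate 2 lay inside the fed SFC range. That of its neighbour *GstE10*, which overlaps it by 20 bases, was 0.95 (SE 0.37, adjusted p = 0.187), with 189.7, 197 and 150.0 CPM in fed SFCs and 138, 53.0 and 86.0 CPM in fed AFCs, and the groups did not overlap. Both were chosen after their values were seen. The remaining tested genes of the cluster had LFCs from -1.63 to -0.05, and the 4 class E genes outside it from -0.78 to 0.47.

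Classes O, S and T had no member called by edgeR (2.99% of all genes were) or limma-voom (3.24%) in this comparison. At these shares 0 calls in 8 genes do not set these classes apart from all genes. At an unadjusted p below 0.05 stood 3 of 8 (*GstO3*, *GstS1* and *GstT4*), against 19.7% of all genes. DESeq2 (11.1% of all genes) called these 3, at adjusted p-values of 0.0438, 0.0357 and 0.0411. edgeR called *GstT4* without fed SFC replicate 1 (0.041, with 2.93% of all genes called). *GstO3*, an omega-class gene, had 42.8, 32.8 and 23.1 CPM in fed SFCs, against 61.5, 51.9 and 65.3 CPM in fed AFCs (LFC -0.86, SE 0.28, adjusted p = 0.127). *GstS1*, the sigma-class enzyme known from indirect flight muscle and for conjugating the lipid peroxidation product 4-hydroxynonenal, had 97.5, 84.3 and 97.2 CPM in fed SFCs, against 119.8, 132 and 147 CPM in fed AFCs (LFC -0.51, SE 0.19, adjusted p = 0.171). Neither gene's groups overlapped. *GstO2* had 122, 165 and 127 CPM in fed SFCs, against 137, 98.9 and 154 CPM in fed AFCs (LFC 0.08, SE 0.25, adjusted p = 0.874), and *GstO1* had an LFC of -0.01 (SE 0.25). Of the theta genes, *GstT3* had 139, 159 and 121 CPM in fed SFCs, against 106, 136 and 109 CPM in fed AFCs (LFC 0.26, SE 0.21, adjusted p = 0.504), and *GstT1* had 155, 104.4 and 80.7 CPM, against 130.1, 135 and 147 CPM in fed AFCs (LFC -0.27, SE 0.24, adjusted p = 0.541). Both theta genes overlapped between the groups, as did *GstT4* (LFC -1.05, SE 0.37, adjusted p = 0.15) and *GstT2* (LFC 0.12, SE 0.24).

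The number of members called moved with the tool. DESeq2 called 13 of the members, 8 in class D and 5 outside it (11.1% of all genes with an adjusted p), and limma-voom 7, all in class D (3.24% of all genes). With single libraries left out edgeR called 3 to 7, with 7 without fed AFC replicate 2 (1.77% of all genes), 3 without fed AFC replicate 3 (0.73%) and 3 without fed SFC replicate 3 (1.73%). Without fed AFC replicate 2 the calls included *GstE1*, *GstD9* and *GstD10* (for *GstD10*, adjusted p = 0.038), and without fed SFC replicate 2 they included *GstD7* (adjusted p = 0.0419).

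**Figure D4:**
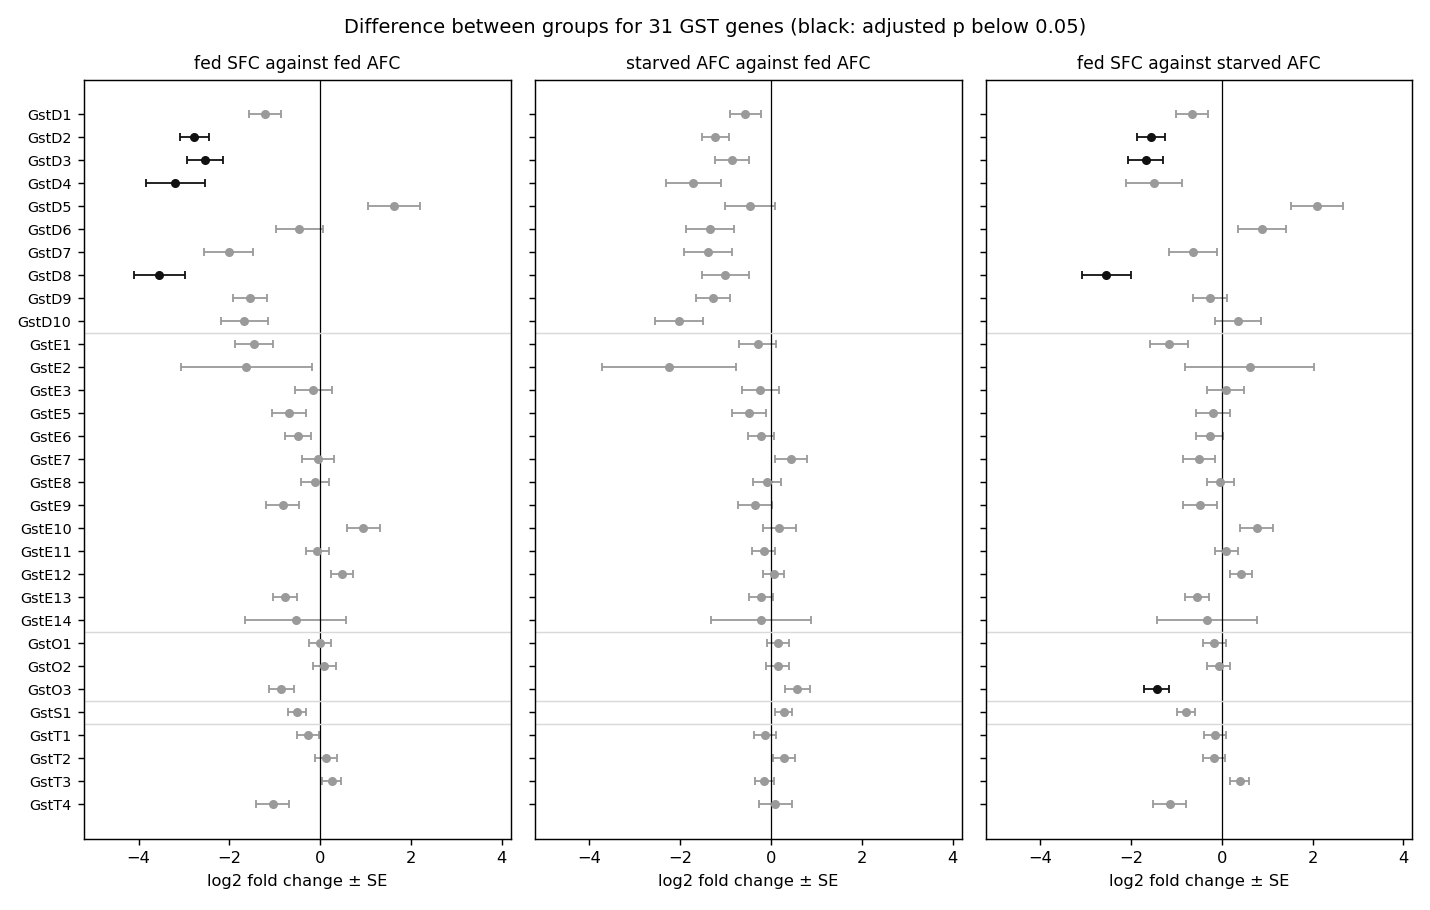
LFC ± SE of the 31 tested GST genes (edgeR) in fed SFCs against fed AFCs, starved AFCs against fed AFCs, and fed SFCs against starved AFCs, with black points at an adjusted p below 0.05. Black points are *GstD2*, *GstD3*, *GstD4* and *GstD8* in the left panel and *GstD2*, *GstD3*, *GstD8* and *GstO3* in the right panel, all on the lower side, and the middle panel has none. The left and middle panels share the fed AFC libraries.

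To ask whether protein starvation changes the family in AFCs, starved AFCs were compared with fed AFCs. No member passed the threshold. All 10 tested class D genes had negative LFCs, from -2.02 for *GstD10* to -0.47 for *GstD5*, with a median of -1.25 beside -0.09 over all genes. edgeR's quasi-likelihood test called 0 of 31 members at an adjusted p below 0.05, where 24 of 10870 genes (0.221%) were called. At an unadjusted p below 0.05 stood 7 of 31, all in class D, against 5.02% of all genes. DESeq2 called 2 members, *GstD2* (adjusted p = 0.0063) and *GstD10* (adjusted p = 0.0145), with 0.969% of all genes called, and limma-voom called 0, with 0.304% of all genes called. On simulated counts with no gene changed between these groups, DESeq2 still made 18.7 calls per run on average, and edgeR and limma-voom made 0.

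*GstD2* had 358, 324 and 471 CPM in starved AFCs, against 948, 946 and 798 CPM in fed AFCs (LFC -1.22, SE 0.30, adjusted p = 0.246). It was 1 of 4 members whose groups did not overlap (12.1% of all genes did not). *GstD3* had 259, 166 and 431 CPM in starved AFCs, against 577, 299 and 682 CPM in fed AFCs (LFC -0.86, SE 0.38). *GstD10* had 9.04, 10.2 and 28.2 CPM, against 102, 23.5 and 67.3 CPM in fed AFCs (LFC -2.02, SE 0.52). For both genes the top starved AFC value lay above the bottom fed AFC value.

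The overlap came from the same libraries in gene after gene. Starved AFC replicate 3 was the highest of its group in all 10 tested class D genes, and fed AFC replicate 2 was the lowest of its group in 9 of 10. *GstD1* had 2752, 2313 and 4342 CPM in starved AFCs, against 4779.9, 4034 and 5082 CPM in fed AFCs (LFC -0.56, SE 0.35), where starved AFC replicate 3 exceeded fed AFC replicate 2. *GstD8* had 10.3, 12.1 and 38.9 CPM, against 39.8, 36.7 and 46.3 CPM in fed AFCs (LFC -1.0025, SE 0.51), and its first 2 starved libraries were far below the fed AFC range. *GstD4* had 10.8, 8.13 and 41.4 CPM, against 89.1, 34.1 and 73.7 CPM in fed AFCs (LFC -1.71, SE 0.61). *GstD7* had 3.99, 4.50 and 10.3 CPM, against 20.8, 9.26 and 19.2 CPM in fed AFCs (LFC -1.39, SE 0.53). The same 2 libraries were at these ends in class E, with starved AFC replicate 3 highest in 9 of 13 tested genes and fed AFC replicate 2 lowest in 10 of 13. Starved AFC replicate 3 was also highest in 7 of the 8 genes of classes O, S and T.

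Outside class D no member had an unadjusted p below 0.05 in this comparison (5.02% of all genes had). The median LFC was -0.23 over the 13 tested class E genes, and the 8 genes of classes O, S and T had LFCs from -0.14 to 0.58. *GstE12* had 435, 355 and 479.8 CPM in starved AFCs (LFC 0.06, SE 0.24) and *GstE6* had 272, 230.0 and 501 CPM (LFC -0.23, SE 0.29), both overlapping fed AFCs. *GstO3* had 66.0, 80.6 and 120.2 CPM in starved AFCs, against 61.5, 51.9 and 65.3 CPM in fed AFCs (LFC 0.58, SE 0.28, unadjusted p = 0.0595 in edgeR's test). *GstS1* had 170.3, 152 and 160.1 CPM, against 119.8, 132 and 147 CPM in fed AFCs (LFC 0.28, SE 0.19). In both genes the starved AFC libraries stood above the fed AFC libraries without overlap, short of the threshold. The remaining values were 132, 114 and 186 CPM for *GstO2*, 109.8, 92.8 and 114.8 CPM for *GstT3* and 117, 122 and 139 CPM for *GstT1* in starved AFCs, each overlapping fed AFCs.

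**Figure D5:**
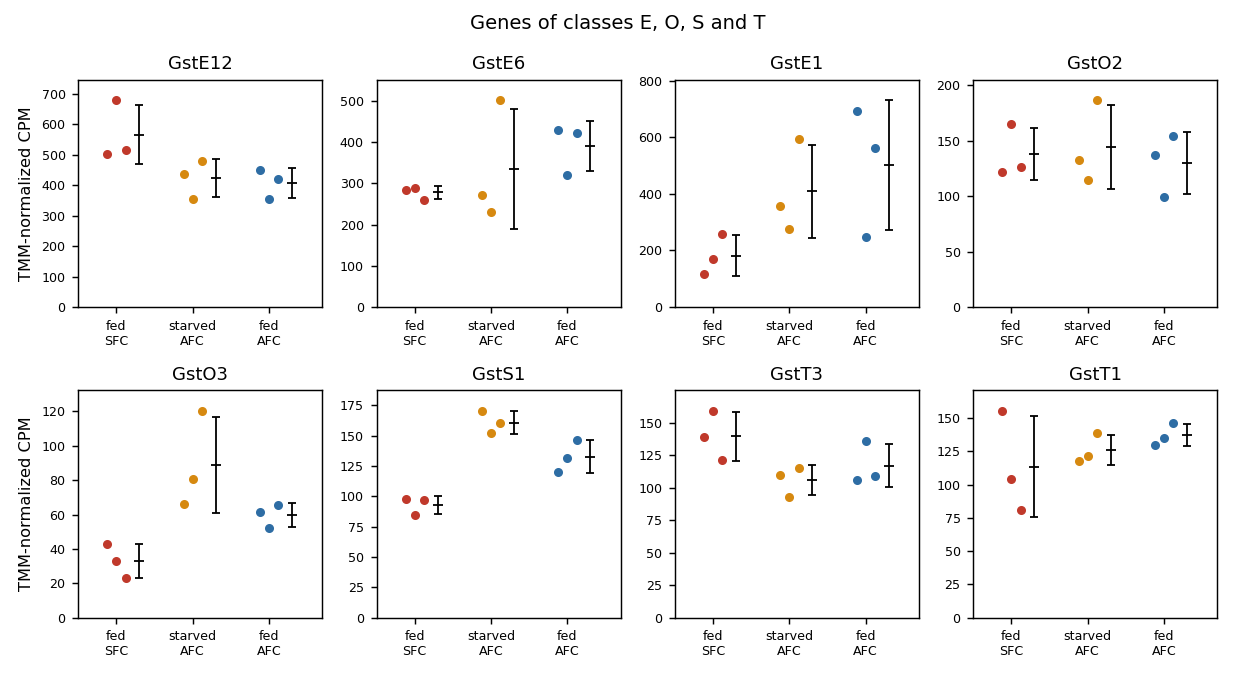
TMM-normalized CPM of *GstE12*, *GstE6*, *GstE1*, *GstO2*, *GstO3*, *GstS1*, *GstT3* and *GstT1*, with 1 point per library for fed SFCs, starved AFCs and fed AFCs and the mean ± SD (n = 3) in black beside each group. *GstO3* and *GstS1* are lowest in fed SFCs and highest in starved AFCs, with no overlap between any of the groups.

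Whether the differences of fed SFCs and of starved AFCs from the shared fed AFC libraries differ from each other was tested directly, as fed SFCs against starved AFCs. *GstD2*, *GstD3*, *GstD8* and *GstO3* were lower in fed SFCs by edgeR's test, which called none higher. These are 4 of 31 members, where 106 of 10870 genes (0.975%) were called lower and 241 (2.22%) in either direction. At an unadjusted p below 0.05 stood 9 of 31 (17.9% of all genes), and 10 of 31 had groups that did not overlap (24.6% of all genes). DESeq2 called 7 members (9.76% of all genes with an adjusted p), of which *GstD5* was higher and *GstS1* and *GstT4* were lower besides the 4 above.

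From the library values given above, *GstD2* was lower in fed SFCs than in starved AFCs with an LFC of -1.55 (SE 0.30, adjusted p = 0.0212, edgeR). *GstD3* had an LFC of -1.67 (SE 0.39, adjusted p = 0.045) and *GstD8* of -2.54 (SE 0.54, adjusted p = 0.0316). The LFC of *GstD8* was -1.67 without starved AFC replicate 3 and -3.19 without fed SFC replicate 1. In each of these genes all fed SFC libraries lay below all starved AFC libraries. *GstO3* (FBgn0035904, 3L from 8518885 to 8520295), with 42.8, 32.8 and 23.1 CPM in fed SFCs and 66.0, 80.6 and 120.2 CPM in starved AFCs, had an LFC of -1.43 (SE 0.28, adjusted p = 0.0219). *GstS1* came next to the threshold, with 97.5, 84.3 and 97.2 CPM in fed SFCs and 170.3, 152 and 160.1 CPM in starved AFCs (LFC -0.79, SE 0.19, adjusted p = 0.057), and passed it with DESeq2 size factors (0.0464) and with the stricter filter on low counts (0.0344).

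These 4 calls depended on single libraries. By edgeR none of the 31 was called without starved AFC replicate 3 (1.09% of all genes) or without fed SFC replicate 2 (0.994%), 1 was called without fed SFC replicate 3 (1.46%) and 2 without starved AFC replicate 1 (0.955%), against 2.22% with all 9 libraries. The adjusted p of *GstD2* reached 0.129, that of *GstD3* 0.171, that of *GstD8* 0.117 and that of *GstO3* 0.0973 with 1 library left out, and all 4 LFCs stayed negative.

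The other class D genes did not show 1 pattern here. *GstD5* had 397, 310.0 and 1141 CPM in fed SFCs, against 95.0, 96.2 and 241 CPM in starved AFCs (LFC 2.10, SE 0.58, adjusted p = 0.0872), without overlap. It passed the threshold with DESeq2 (adjusted p = 0.0489) and without the low-count filter (0.035), and its LFC was 1.30 without fed SFC replicate 3. The TPM ratio of *GstD5* to *GstD2* was 0.206, 0.229 and 0.381 in the starved AFC libraries, in the range of the fed AFC libraries or a little above it. *GstD1* (-0.65), *GstD7* (-0.63), *GstD9* (-0.27) and *GstD10* (0.35) had LFCs with adjusted p-values from 0.352 to 0.767, and a difference between fed SFCs and starved AFCs was not detected in these 4 genes. Without starved AFC replicate 3 the LFC of *GstD9* was 0.35 and that of *GstD10* 1.07. *GstD6* had an LFC of 0.88 (SE 0.53) and *GstD4* of -1.49 (SE 0.62, adjusted p = 0.231). In class E, *GstE1* was the only tested gene at an unadjusted p below 0.05 (LFC -1.17, SE 0.42, adjusted p = 0.174), where 17.9% of all genes stood. In class T it was *GstT4* (LFC -1.15, SE 0.37, adjusted p = 0.135), which edgeR called without fed SFC replicate 1 (0.0364).

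Markers of other tissues moved between the same groups. Of 15 midgut markers, 6 were lower in fed SFCs (*Jon25Bi*, *Jon25Biii*, *Jon65Ai*, *Jon99Fi*, *LysB* and *LysD*) and 4 in starved AFCs (the *Jon* genes just named), each against fed AFCs, and none was at 0 in a group. Over all genes, 1.78 and 0.221% were called lower in these comparisons. In fed SFCs 4 of the 15 had positive LFCs, up to 0.60, and in starved AFCs 0 had. Between fed SFCs and starved AFCs, *Jon25Bi* and *Jon25Biii* were higher and *LysB* and *LysD* lower in fed SFCs. Their summed level was 2725 to 4486 CPM in fed SFCs, 4602 to 6115 CPM in starved AFCs and 6029 to 10161 CPM in fed AFCs. Of 10 muscle markers, 4 were higher in fed SFCs than in fed AFCs (*Mhc*, *up*, *TpnC41C* and *bt*), where 1.21% of all genes were called higher. Sums of the 10 were 862 to 1870.1 CPM in fed SFCs, 491 to 648 CPM in starved AFCs and 488 to 908 CPM in fed AFCs. None of the 12 Malpighian tubule markers found was called by edgeR in fed SFCs against fed AFCs (2.99% of all genes were). At an unadjusted p below 0.05 stood 3 (19.7% of all genes). Of the 12, 10 had positive and 2 negative LFCs (median 0.86). In fed SFCs against starved AFCs 0 were called (2.22% of all genes), and all 12 LFCs were positive (median 0.77). Sums of the 12 were 682 to 887 CPM in fed SFCs, 401 to 819.8 CPM in starved AFCs and 313 to 682 CPM in fed AFCs. Fat body sums were 1095 to 2398 CPM in fed SFCs, 328 to 958 CPM in starved AFCs and 402 to 1308 CPM in fed AFCs, and 2 of its 10 markers (*Lsp2* and *fit*) were higher in fed SFCs than in starved AFCs (1.24% of all genes were called higher). Further calls in fed SFCs against fed AFCs were *bcd* and *Cyp4g1*, both higher, and *Sox14*, lower. *bcd* was 1 of 7 germline markers tested, all 7 with positive LFCs. *Cyp4g1* was 1 of 5 pericardial and oenocyte markers, 3 with positive and 2 with negative LFCs. *Sox14* was 1 of 3 mid/late follicle markers, 2 with negative LFCs and 1, *Yp1*, with a positive LFC (0.60). The part of these tissues in the GST differences was not tested.

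The genes around the GSTs in glutathione metabolism gave no call. Of 21 genes of the glutathione pathway found in the data, 19 were tested, and edgeR called 0 in each of the 3 comparisons. In fed SFCs against fed AFCs, starved AFCs against fed AFCs and fed SFCs against starved AFCs, 2.99, 0.221 and 2.22% of all genes were called. At an unadjusted p below 0.05 stood 4, 1 and 4 of the 19, against 19.7, 5.02 and 17.9% of all genes. At these shares 0 calls in 19 genes do not set the pathway apart. The median LFCs of the 19 were 0.04, 0.01 and -0.06. The highest by mean TPM over all 9 libraries were *eEF1gamma*, a translation elongation factor subunit with a GST-like domain (LFC -0.49 in fed SFCs, SE 0.32), the glutaredoxin *Grx1* (LFC 0.00045, SE 0.34) and *Gclm*, the modifier subunit of the enzyme that limits glutathione synthesis (LFC -0.09, SE 0.22), each against fed AFCs. Reads of *se*, inside the omega cluster, were 18, 0 and 6 in fed SFCs, 13, 28 and 23 in starved AFCs and 57, 0 and 15 in fed AFCs.

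The 15 genes of the CncC and antioxidant list had no call either (2.99, 0.221 and 2.22% of all genes were called). At an unadjusted p below 0.05 stood 3, 0 and 2 in the same order of comparisons, against 19.7, 5.02 and 17.9% of all genes. The superoxide dismutase *Sod1* and the peroxiredoxins *Prx2* and *Prx5* were the highest by mean TPM over all 9 libraries and had LFCs of -0.65, -0.52 and -0.18 in fed SFCs against fed AFCs. The list's median LFCs were -0.07, -0.11 and -0.05, close to those over all genes (-0.10, -0.09 and -0.02).

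Of 22 genes of phase I and phase II detoxification 21 were tested. edgeR called 1 higher and 1 lower in fed SFCs against fed AFCs (2.99% of all genes). It called 1 lower in starved AFCs against fed AFCs (0.221%), and 1 higher and 1 lower in fed SFCs against starved AFCs (2.22%). *Ugt36A1*, a UDP-glycosyltransferase, was lower in fed SFCs (LFC -2.51, SE 0.32, adjusted p = 0.00178) and in starved AFCs (LFC -2.03, SE 0.32, adjusted p = 0.0246), each against fed AFCs. It had 4.37, 5.78 and 4.58 CPM in fed SFCs, 6.53, 5.84 and 8.16 CPM in starved AFCs and 28.9, 22.2 and 32.9 CPM in fed AFCs. *Cyp6a17*, a cytochrome P450, was higher in fed SFCs, with 449, 340.0 and 308 reads, against 0, 8 and 0 reads in starved AFCs and 9, 1 and 0 reads in fed AFCs (adjusted p = 0.0276 against fed AFCs and 0.0313 against starved AFCs). *Jheh3*, a juvenile hormone epoxide hydrolase, was lower in fed SFCs than in starved AFCs (LFC -1.34, SE 0.29, adjusted p = 0.0328). The highest of the list by mean TPM over all 9 libraries, *Cyp6d5*, *Jheh2* and *Cyp6g1*, had LFCs of 0.80, -0.15 and 0.08 in fed SFCs against fed AFCs, none past the threshold, and in both AFC groups *Jheh3* had a higher mean TPM than *Cyp6g1*.

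Several members have more than 1 transcript, and the share of reads on the one with the most reads in sum over all 9 libraries varied among libraries. For *GstS1*, FBtr0333551 took 30.9 to 63.1% of the reads in fed SFCs, 44.8 to 59.8% in starved AFCs and 58.5 to 80.2% in fed AFCs. For *GstD9*, FBtr0082608 took 29.7 to 89.8% in fed SFCs, 31.8 to 58.1% in starved AFCs and 49.8 to 88.5% in fed AFCs, so that the ranges of the groups overlapped. In single libraries of *GstS1* and *GstD9* another transcript had more reads. For *GstD1*, FBtr0082607 took 83.7 to 95.6% in fed SFCs, 88.3 to 93.1% in starved AFCs and 90.6 to 93.9% in fed AFCs. Where transcripts of 1 gene overlap, these shares are Salmon's estimates and were not tested.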

How the data were processed

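For each of 9 TRAP-seq libraries the authors deposited Salmon 1.1.0 output per transcript. Per the labels, reads were made with bcl2fastq 2.2 and trimmed with cutadapt, and the methods give BDGP6.32 as the reference with GC-bias correction. The deposited estimated counts are not normalized and need not be whole, and the deposited TPM were computed by the authors' Salmon run over effective lengths.

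Here, 30179 of 30215 transcripts were assigned to genes by their identifiers in BDGP6.54, and estimated counts were summed per gene and rounded. Genes were filtered with filterByExpr (minimum count 10, 10870 kept), scaled by TMM and tested with edgeR 4.0.16 (quasi-likelihood F test, 1 mean per group, all 9 libraries in the fit, R 4.3.3). Benjamini-Hochberg adjustment ran over all genes tested, with a threshold of 0.05, and the SE is the LFC over the root of F. The common dispersion was 0.362. TPM served to compare genes and classes within a library, and the resulting levels, shares and ratios were set side by side across groups without a test. Alternatives were DESeq2 1.42.0, limma-voom (limma 3.58.1), other size factors, filters, offsets and thresholds, a fit on 2 groups alone, a replicate block, removal of rRNA reads, and omission of libraries. Tables were made with Python 3.11.15 and pandas 2.3.3. The scripts were tested on simulated counts, in 3 runs with 200 of 10870 genes changed in fed SFCs against fed AFCs. On average edgeR recovered 52.3% of the changed genes, DESeq2 62.8% and limma-voom 49.2%. Among genes changed 8 or 16 fold, the largest changes simulated, recovery by these tools was 70.7, 77.3 and 65%. Of the calls of each tool, 5.71, 27.1 and 4.2% were false.

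Values in every library are given for members past the threshold, the 2 highest of each class by mean TPM, and the class D genes the study took to RNAi. Genes of the pathway lists are named where they passed the threshold or were among the 3 highest. Symbols of 3 listed genes (Gss2, Capar and nos) were not matched and are not analysed here. The members and lists were chosen with earlier results of these data known.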

Additional observations from a re-analysis of the deposited data

How the results depend on the processing

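Counts of called members are given with the share of all genes called. In fed SFCs against fed AFCs, 4 members were called (2.99%), with 13 under DESeq2 (11.1%), 7 under limma-voom (3.24%) and 3 to 7 with 1 library left out, and the other 9 of 11 alternatives stayed within 1.5 times. In starved AFCs against fed AFCs, 0 were called (0.221%), with 2 under DESeq2 (0.969%) and 0 in the other 10 and with any library left out. In fed SFCs against starved AFCs, 4 were called (2.22%), with 0 at an adjusted p below 0.01 (0.57%), 7 under DESeq2 (9.76%), 2 when only the 2 groups compared were fitted (2.07%), 0 without fed AFC replicate 1 and fed SFC replicate 2 together (2.08%), and 0 to 4 with 1 library left out. With the replicate number as a block (replicate block) the counts were 4 (1.71%), 0 (0.248%) and 4 (1.5%), where *GstD5* was called higher (adjusted p = 0.0282) and *GstO3* was not (0.0517) in the last comparison. Whether the numbers pair the libraries cannot be decided from 3 libraries a group. Of 9 same-numbered pairs, 2 had deviations from their group means correlated above 0.1 (-0.53 to 0.385). Differently numbered libraries reached higher values, with 0.637 for fed AFC replicate 1 and starved AFC replicate 2. A batch shared across the groups was not tested. Of 1764 values of the 31 tested members under the alternatives, 1703 kept their side of the threshold, 27 lost the call and 34 gained one. The sign changed in 60, none of them called. What caused these changes was not tested. The members with few reads, *GstD11*, *GstE4*, *GstE2* and *GstE14*, are limited by depth.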
